A study of Rattus norvegicus with 24 samples.

Results

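The RNA labelled hypothalamus from saline-injected rats was compared with saline RNA of 5 other brain regions, gene by gene, to describe what is high and low in it. The values were the 4 saline channels of the 4 hypothalamus arrays out of 24 saline channels in all, the other 20 being 4 each from hippocampus, cerebral cortex, ventral striatum, amygdala and midbrain. All arrays held 2 colours, with saline RNA in Cy3 on 2 arrays of each region and in Cy5 on the other 2, and RNA of rats given MK-801, an NMDA receptor antagonist, in the opposite colour. The rats were 9 male Wistar rats aged 10 weeks, 3 injected with saline and 6 with MK-801 at 0.08 or 0.16 mg per kg, and brains were taken 40 min after the injection. The labels name no animal and do not say whether RNA was pooled, so the 4 channels of a region may hold 1 RNA and were averaged into 1 regional value, balanced over both dyes. Each region lay on a slide of its own, so region and slide cannot be told apart. Hypothalamus and hippocampus were scanned on 1 day, midbrain and amygdala on another, and ventral striatum and cerebral cortex on the remaining 1 of 3 scan days. After probes dim in all but a few channels were left out, 28696 genes or transcripts remained, 13513 of them with a gene symbol.

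The hypothalamus lies below the thalamus and above the pituitary. Its neurons are known for secreted peptides: melanin-concentrating hormone (Pmch) and hypocretin (Hcrt) in the lateral part, oxytocin (Oxt), vasopressin (Avp) and thyrotropin-releasing hormone (Trh) in the paraventricular nucleus, and pro-opiomelanocortin (Pomc), agouti-related peptide (Agrp), growth hormone-releasing hormone (Ghrh) and kisspeptin (Kiss1) in the arcuate nucleus. The thalamus, which borders it, and the habenula on the dorsal side of the thalamus lack most of these peptides. They are known for excitatory neurons with the vesicular glutamate transporter Slc17a6 and for genes such as Prkcd, Lef1 and Ntng1.

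Each gene was read by 60-base probes, and a few are printed here because the results turn on what they can tell apart. Oxytocin and vasopressin come from related precursors that sit close together on chromosome 3, yet their values differed in the RNA labelled hypothalamus. The Oxt probe and the 2 Avp probes are given with their longest shared run, 10 bases, in capitals.
Oxt, chr3:118100336-118100479, plus strand: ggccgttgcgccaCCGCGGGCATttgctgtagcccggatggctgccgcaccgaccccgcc
Avp, dimmer probe, chr3:118110779-118111063, minus strand: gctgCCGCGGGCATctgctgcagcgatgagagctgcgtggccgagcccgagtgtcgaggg
Avp, brighter probe, chr3:118110655-118110714, minus strand: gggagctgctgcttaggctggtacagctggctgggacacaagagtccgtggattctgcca
Coordinates are those of the rat rn3 build in the deposited array files, where a span over the probe's length crosses an intron. Without gaps, the Oxt probe matched the dimmer Avp probe at 35 of 51 aligned bases and the brighter Avp probe at 20 of 57.

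A further set is shown because it stands for the contrast that runs through the results. Agrp marks a hypothalamic nucleus. Zic1 (a zinc-finger transcription factor) and Chrna3 (a nicotinic acetylcholine receptor subunit) were high in the RNA labelled hypothalamus. Fezf2 (a transcription factor of deep-layer cortical neurons) was low in that RNA and in midbrain.
Agrp, chr19:35391762-35392003, minus strand: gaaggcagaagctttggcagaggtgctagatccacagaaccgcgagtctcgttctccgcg
Zic1, chr8:96336889-96336948, minus strand: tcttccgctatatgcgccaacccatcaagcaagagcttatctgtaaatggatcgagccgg
Chrna3, chr8:58591650-58591709, minus strand: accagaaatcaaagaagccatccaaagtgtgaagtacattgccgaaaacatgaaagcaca
Fezf2, chr15:14354072-14354131, plus strand: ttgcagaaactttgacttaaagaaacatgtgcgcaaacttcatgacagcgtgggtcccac

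The label was checked against hypothalamic peptides, and in 3 of the 27 measured ones (Pmch, Oxt and Trh) all 4 of its channels lay above the other 20, beside 2.92% of all genes. By the mean, the same 3 were highest in it, beside 18.5% of all genes. All levels below are log2 normalized intensities, and all differences are the level labelled hypothalamus minus the mean of the other 5 regions on that log2 scale. Pmch read 12.99, 12.62, 12.76 and 12.66 in the 4 channels labelled hypothalamus, against a lowest, median and highest of 6.68, 7.64 and 9.56 in the other 20 channels. The groups did not overlap, and midbrain came next at a mean of 9.44. The difference was 4.89 (SE 0.81), a 29.6-fold higher level, with a limma adjusted p of 0.392.

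Oxt read 9.06, 9.15, 9.19 and 9.03 in the channels labelled hypothalamus, against 4.57, 5.35 and 7.47 as the lowest, median and highest of the other 20. Again the groups did not overlap, and amygdala was the next region at 7.22. The Oxt difference was 3.51 (SE 0.83, limma adjusted p = 0.760). Trh read 9.88, 10.45, 9.76 and 10.32 in the channels labelled hypothalamus, against a lowest of 2.61, a median of 5.57 and a highest of 9.34 elsewhere. Ventral striatum was next for Trh at 8.89, and the difference was 4.44 (SE 1.70, limma adjusted p = 0.786).

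The other hypothalamic peptides did not set this RNA apart. Avp read 8.54, 8.56, 8.62 and 8.50 in the channels labelled hypothalamus, against 6.97, 7.70 and 10.94 as the lowest, median and highest elsewhere, and the amygdala was higher at a mean of 10.69. Its difference was 0.38 with the brighter probe and 1.18 with the dimmer one, which was well above background in 14 of the other 20 channels. The channels of the arcuate peptides named above and of Hcrt overlapped those of the other regions. The differences were 0.19 for Pomc, -0.61 for Agrp, 0.15 for Ghrh, -0.37 for Kiss1 and -0.04 for Hcrt. Each of these 5 was well above background in all 4 channels labelled hypothalamus. Kiss1, at 4.85 to 5.29, and Agrp were still dim there. The lowest signal that counted as well above background was 2.21 to 5.24 across saline channels. Agrp was well above background in all 20 other channels too. Pomc spanned 10.12 to 10.25 in the channels labelled hypothalamus and 9.76 to 10.38 in the other 20. The reading of its probe was thus close to the same in every region. Whether the probes of Pomc and the other flat peptides report those transcripts alone was not tested. Agrp spanned 5.73 to 5.95, against 5.72 to 7.09 elsewhere. By the mean it was lowest in the RNA labelled hypothalamus, at 5.82, with midbrain next at 6.13.

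The remaining peptides of the list differed in both directions. Somatostatin (Sst) was the member of the list whose 4 channels all lay below the other 20, at 12.02 to 12.16 against 12.41 to 14.65, a difference of -1.82. That is 1 of 27, beside 2.36% of all genes. Prodynorphin (Pdyn) had a difference of -2.33, proenkephalin (Penk) -1.43, neuromedin B (Nmb) -1.27, gastrin-releasing peptide (Grp) -1.12, Cartpt -1.12 and neuropeptide Y (Npy) -1.02, each overlapping other regions' channels. Vasoactive intestinal peptide (Vip) was at 1.81, galanin (Gal) at 0.42, corticotropin-releasing hormone (Crh) at -0.25, gonadotropin-releasing hormone (Gnrh1) at -0.30 and neurotensin (Nts) at -0.87. Adcyap1 (0.66), Tac3 (0.47), Npvf (0.05) and Tac1 (-0.24) also overlapped other regions, and Nmu (-0.51) and Qrfp (-0.82) were not well above background in any of the 4 channels labelled hypothalamus. The median difference of the 27 peptides was -0.25, beside 0.02 over all genes.

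**Figure D1:**
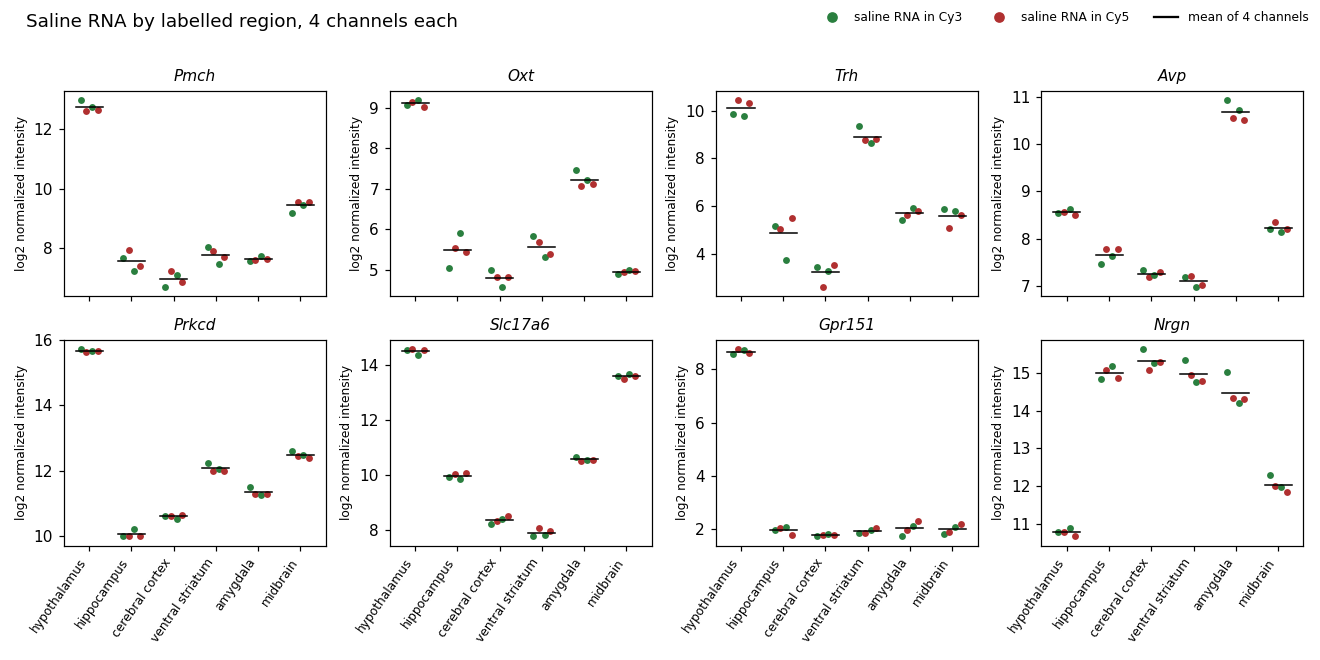
Log2 normalized intensity of 8 genes in saline RNA by labelled region, 4 channels each, points coloured by the dye of the saline RNA and lines at the mean of the 4. The 4 hypothalamus points lie above all 20 others for Pmch, Oxt, Trh, Prkcd, Slc17a6 and Gpr151 and below them for Nrgn, while for Avp the amygdala is highest at 10.69.

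Of 39 listed transcription factors of the hypothalamus, 31 were measured. Their median difference was 0.43, beside 0.02 over all genes. By the mean, 9 were highest in the RNA labelled hypothalamus and 2 lowest, beside 5275 and 5160 of 28579 genes. Lhx9, a LIM homeobox factor, was the 1 member with all 4 channels above the other 20 (beside 2.92% of all genes), at 7.31 to 7.60 against 3.26 to 6.95 and a difference of 2.06. Nkx2-1, which the developing hypothalamus needs, read 5.48, 5.74, 4.37 and 5.86, against 2.91, 5.35 and 7.35 as the lowest, median and highest elsewhere. Its difference was 0.06. Rax (0.73), Otp (0.56) and Six6 (0.46) were highest in this RNA by their means but near background, with Rax and Six6 well above it in 1 of 4 channels and Otp in 3 of 4. Isl1 (3.61) was high as well, with a mean labelled hypothalamus of 7.93, against 8.45 in ventral striatum, and Lhx6 stood at -0.93. Rax, Otp, Six6 and Nkx2-1 were picked for mention after their values were seen.

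The genes that led the RNA labelled hypothalamus included Pmch and Trh but also genes known from the habenula and thalamus, such as Gpr151 and Prkcd, so the RNA is called here by its label alone. Gpr151, an orphan receptor known from habenular neurons, read 8.57, 8.76, 8.71 and 8.62, against 1.74, 1.92 and 2.31 as the lowest, median and highest of the other 20 channels. In none of those 20 was its probe well above background, so the difference of 6.72 (SE 0.30) is given as an at least 25.9-fold higher level. With normexp background correction, which adds an offset of 50 to every signal, the Gpr151 difference was 3.20. The probe passed the filter on dim probes through the channels labelled hypothalamus alone, so it had to be high in them, and its small error is the spread of values at background. It was the only gene called in the limma fit on 6 regional values (adjusted p = 0.00149), which is 0.00350% of the 28579 genes tested. No gene was called lower (0%). In this limma fit 1706 of the 28579 genes had an unadjusted p under 0.05 in either direction. By chance alone a share of 0.05 would pass that threshold.

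That fit sets 1 value labelled hypothalamus against 5 others, assumes that it would vary like them, and so measures a gene against how much the other regions differ among themselves. A gene that is also high or low in some other region has a large error in it. Without midbrain the same fit called 29 genes higher and 18 lower, among them Shox2 (7.90), Smpx (6.58), Slc6a3 (5.74), Pmch (5.28, adjusted p = 0.0182), Chrna3 (4.62) and Zic1 (3.15) as higher, and Kcnv1 (-5.77), Itpka (-5.10) and Nrgn (-4.14) as lower. Tph1, an enzyme of serotonin synthesis used by the pineal gland, was called there too (3.85), as was Plvap (3.93), a protein of fenestrated vessels. With all regions kept, the genes below are described by their channels.

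In 784 genes all 4 channels labelled hypothalamus lay above the other 20, which is 2.92% of the 26879 genes with a value in every channel. In 635 genes they lay below (2.36%). These are counts over channels, not tests, and 3 of the 784 genes passed the filter through the channels labelled hypothalamus alone. When each channel labelled hypothalamus was set only against the 5 of the same array number, 1357 genes were higher on all 4 numbers and 1032 lower. Of the 784, 189 had a difference above 2, and of the 635, 99 had a difference under -2. The counts depend on which regions are in the set: they were 1490 and 1208 without midbrain, and 1800 and 1515 without hippocampus.

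Shox2, a homeobox factor, had a difference of 6.82, or 3.89 with normexp. It read 10.50, 10.35, 9.68 and 10.27 in the channels labelled hypothalamus, against 1.76, 2.19 and 8.16 as the lowest, median and highest elsewhere. Midbrain was next at a mean of 7.67, and 4 of the other 20 channels were well above background, so in most channels elsewhere the level is set by background. Its other probe gave a difference of 8.36. Mybpc1 (6.14), a myosin-binding protein of slow muscle, and Smpx (5.53), a small muscle protein, followed. Mybpc1 read 11.10 to 11.38, against 2.50 to 7.08 in the other regions, and Smpx read 8.82 to 9.59, against 1.78 to 8.01.

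Slc17a6, the glutamate transporter of subcortical excitatory neurons, read 14.56, 14.59, 14.38 and 14.56, against 7.78, 9.99 and 13.67 as the lowest, median and highest elsewhere. Midbrain was close behind at 13.60, and ventral striatum was lowest at 7.90. Prkcd, a protein kinase C, read 15.74, 15.66, 15.67 and 15.68, against 9.98, 11.28 and 12.61. Its difference was 4.39 and its gap to the next region, midbrain, was 3.21. Both genes had values in every region far above background, so these are differences between measured levels.

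Other genes among the 15 highest with a symbol were Cidea (4.76), a lipid droplet protein, Scn7a (4.31), a sodium channel found in sodium-sensing cells, Clec2d2l1 (4.26), Grid2ip (4.24), a scaffold of the delta glutamate receptor, Chrna3 (4.16) and Mlnr (3.93). The Mlnr probe is listed in the array files as Trhr2, a thyrotropin-releasing hormone receptor, and takes the name Mlnr from the RefSeq table through its accession. Grid2ip and Clec2d2l1 were dim in most other channels, being well above background in 7 and 4 of 20. Midbrain was the next highest region for 10 of the 14 genes described, all but Gpr151, Mybpc1, Trh and Grid2ip.

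**Figure D2:**
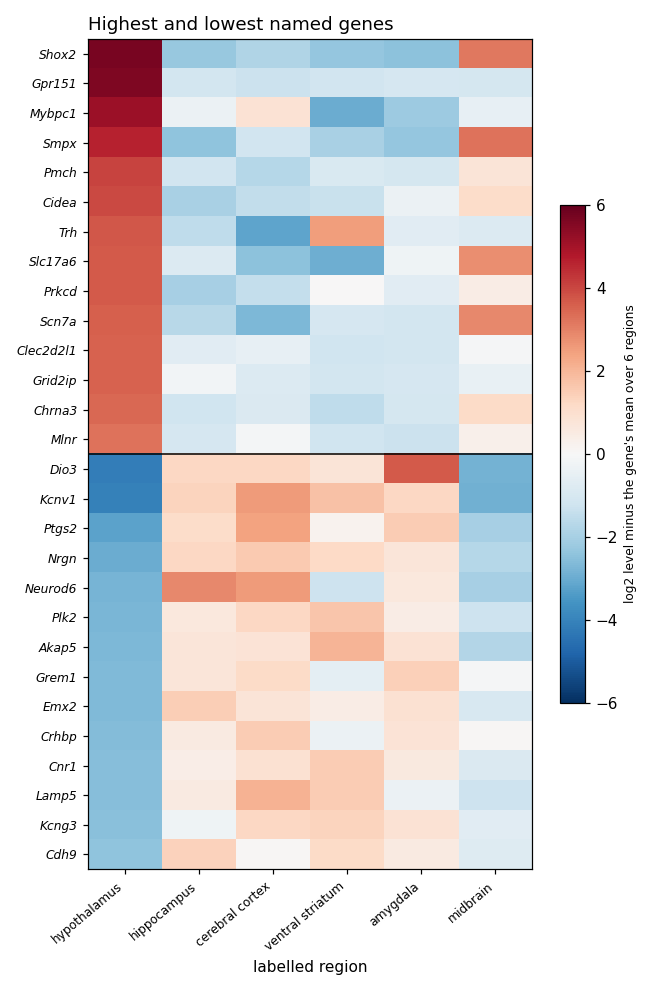
Log2 level of each gene minus its own mean over the 6 regions (colour scale from -6 to 6) for 14 of the 15 highest and 14 of the 15 lowest named genes whose 4 hypothalamus channels lay beyond the other 20, with the labelled regions as columns. Shox2, Smpx, Slc17a6 and Scn7a are also high in midbrain and Trh in ventral striatum, and midbrain is the next lowest region for Dio3, Kcnv1, Nrgn and Emx2.

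Genes of the thalamus had the largest median difference of the 20 lists. Of 9 listed, 7 were measured and 6 of them, Prkcd, Ramp3, Lef1, Ntng1, Rgs16 and Rora, had all 4 channels labelled hypothalamus above the other 20, beside 2.92% of all genes. The median difference of the 7 was 3.68, beside 0.02 over all genes. The lists were chosen with earlier results of these data known, so this list's rank and counts describe and do not test. Ramp3, a receptor activity-modifying protein, read 11.98 to 12.81 against 7.65 to 9.78, and Lef1, a Wnt-responsive transcription factor, read 9.59 on average, against 4.45 to 7.02. Ntng1 (netrin G1) read 9.95 to 10.31 against 5.17 to 8.11. Rora, a nuclear receptor, read 7.09 to 7.96 against 3.83 to 6.50. Rgs16, a regulator of G-protein signalling, was not well above background in any other channel and was at least 4.18-fold higher. It passed the filter through the channels labelled hypothalamus alone and so had to be high in them. Without it, 5 of 6 genes lay above, with a median difference of 3.76. Tnnt1 was the exception, with 7.68 to 8.99 in this RNA and a higher mean, 9.58, in ventral striatum. The mean level of the 7 genes was 9.99 in RNA labelled hypothalamus, 6.41 in hippocampus, 6.47 in cerebral cortex, 6.87 in ventral striatum, 6.86 in amygdala and 7.46 in midbrain. In RNA of whole dissected tissue, more cells of a type and more RNA per cell cannot be told apart. How much of the dissected piece was thalamus was not tested.

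In the subcortical glutamate list 2 of 4 genes, Slc17a6 and Zic1, had all 4 channels above the other 20, beside 2.92% of all genes. Zic2 (2.20) was highest by its mean, and Slc17a8 (0.36) was not. Zic1 read 8.24, 7.95, 8.20 and 8.22, against 4.17, 4.77 and 6.69 as the lowest, median and highest elsewhere, and no other region's mean passed 5.16. Zic2 was well above background in 3 of 4 channels labelled hypothalamus and in 3 of 20 others.

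**Figure D3:**
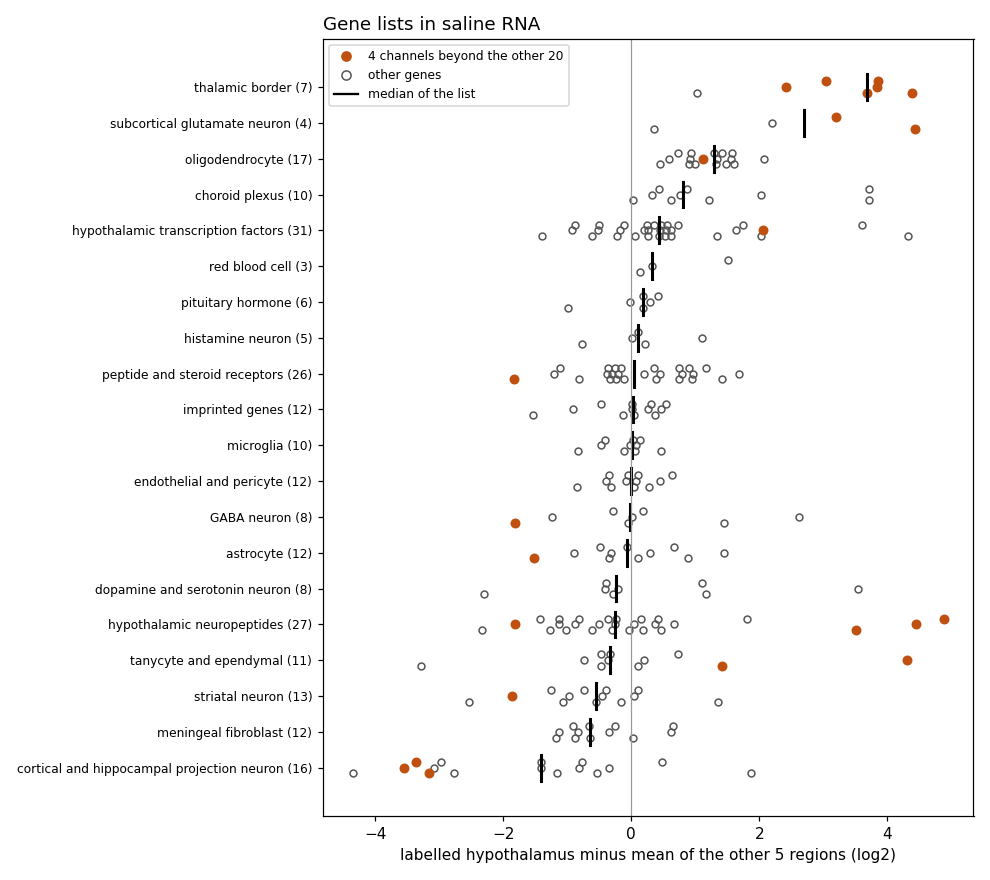
Difference of each measured gene (log2, labelled hypothalamus minus the mean of the other 5 regions) in 20 gene lists, with the number measured in brackets, filled points where all 4 hypothalamus channels lay beyond the other 20 and black bars at the list's median. The thalamic list lies furthest to the right with 6 of 7 points filled. Of the 27 hypothalamic neuropeptides, 3 are filled on the right and 1 on the left. The lists were chosen with earlier results of these data known.

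Of the 14 lowest genes described here, 3 (Nrgn, Neurod6 and Emx2) are in the list of cortical and hippocampal projection neurons. The highest mean was in ventral striatum for Akap5, Plk2, Cnr1 and Kcng3 and in amygdala for Dio3 and Grem1. Dio3, the enzyme that inactivates thyroid hormone, had the largest negative difference of the 14, -4.97. It read 4.24, 3.06, 4.53 and 4.77 in the channels labelled hypothalamus, against 5.15, 9.45 and 12.20 as the lowest, median and highest elsewhere. Its other probe gave -0.41, so the probes disagree on the size. Kcnv1, a silent potassium channel subunit, read 6.58, 6.24, 5.88 and 6.60, against 7.26, 11.88 and 13.16, a difference of -4.85. Midbrain was the lowest of the other regions for both, at 5.47 for Dio3 and 7.49 for Kcnv1, as it was for 12 of the 14 described here among the 15 lowest named genes.

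Nrgn (neurogranin), a calmodulin-binding protein of postsynaptic spines, read 10.78, 10.80, 10.90 and 10.68, against 11.85, 14.85 and 15.63 as the lowest, median and highest of the other 20. Neurod6, a factor of cortical and hippocampal excitatory neurons, read 6.17 to 6.66 against 6.89 to 12.25, with its highest mean in hippocampus at 12.09. Ptgs2 (cyclooxygenase 2) had a difference of -3.87, Plk2 (an activity-induced kinase) -3.28, Akap5 (an anchor of protein kinase A) -3.23, Grem1 (an inhibitor of bone morphogenetic proteins) -3.20 and Emx2 (a cortical homeobox factor) -3.16. Crhbp, which binds corticotropin-releasing hormone, had -3.13, the cannabinoid receptor Cnr1 -3.08, Lamp5 -3.05, Kcng3 -3.00 and Cdh9 -2.91. The other Cnr1 probe gave -1.85, with midbrain (7.6) lower than the RNA labelled hypothalamus (7.8). Other probes also gave smaller differences for Emx2 (-2.09), Grem1 (-1.42) and Ptgs2 (-0.60). In the channels labelled hypothalamus Kcng3 was well above background in 1 of 4, Dio3 in 2 of 4, and Ptgs2 and Cdh9 in 3 of 4, so the sizes of these differences rest partly on values close to background.

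Of 16 measured genes of cortical and hippocampal projection neurons, 3 (Nrgn, Neurod6 and Emx2) had all 4 channels below the other 20, beside 2.36% of all genes, and none had them above. The list's median difference was -1.41, beside 0.02 over all genes, and -3.05 against hippocampus alone. Its mean level was 7.08 in RNA labelled hypothalamus, against 6.03 in midbrain and 8.51 to 10.32 in the other 4 regions. The low level was thus shared with midbrain. Fezf2 read 4.03, 3.83, 3.17 and 3.89 and was not well above background in any of these 4 channels, so its level was at least 15.7-fold lower than the mean of the other regions. Elsewhere it was well above background in 16 of 20 channels. In midbrain it read 1.86 to 2.57, so its low level was shared with midbrain. Prox1 (1.87) and Cux2 (0.48) were the highest members.

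Striatal genes averaged 8.96 in RNA labelled hypothalamus, against 13.01 in ventral striatum and 8.39 to 9.13 in the other 4 regions. Rxrg, a retinoid receptor, was 1 of 13 with all 4 channels below the other 20 (-1.87), beside 2.36% of all genes. Midbrain, the next lowest region for Rxrg by this probe, differed from the RNA labelled hypothalamus by 0.58. The other Rxrg probe gave -1.04. By that probe midbrain (6.35) and cerebral cortex (6.39) were lower than the RNA labelled hypothalamus (6.68). Gpr6 (-2.54) was the lowest and Foxp2 (1.35) the highest of the 13, with Pde1b at 0.11. The list median was -0.56, or 0.29 against hippocampus alone. Of 8 genes of GABA neurons, Sst was the member below all 20, beside 2.36% of all genes. Calb2 (2.62) and Pvalb (1.44) were the highest, and Gad2 (-1.24) was the next lowest after Sst.

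Receptors, imprinted genes and hormone genes showed little. Of 26 measured receptors for peptides and steroids, none had all channels above the other 20 and Tacr3, the neurokinin B receptor, had them below (-1.83), 1 of 26 beside 2.36% of all genes. The leptin receptor Lepr was highest in this RNA by its mean (7.53), with amygdala next at 7.44, and Npy1r stood at 1.41 and Sstr1 at -1.21. The median over these receptors was 0.04. Of 12 measured imprinted genes none was beyond the other 20, the highest being Cdkn1c (0.54) and Grb10 (0.47) and the lowest Igf2 (-0.92) and Ube3a (-1.54). Dimmer Grb10 probes, though, gave -0.725 and -0.175. Of 6 pituitary genes none was beyond either, from Pou1f1 (-0.99) and Lhb (-0.02) to Prl (0.29) and Gh1 (0.42), and Prl and Pou1f1 were not well above background in any of the 4 channels. Histamine neurons of the hypothalamus need the enzyme Hdc, which had a difference of 0.10. In that list Slc18a2 (1.10) and Hrh3 (0.22) were highest, and Maob (0.01) and Hnmt (-0.76) lowest.

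Markers of other cell types that the dissection could hold moved as follows, and their part in the results above was not tested. Genes of oligodendrocytes were above the mean of the other regions in 17 of 17, among them Aspa (0.59) and Cldn11 (1.60). Their median difference was 1.29, beside 0.02 over all genes. Olig1 (1.12) was the 1 member above the other 20, beside 2.92% of all genes. The list's mean level was 12.38 in RNA labelled hypothalamus, against 12.52 in midbrain and 10.15 to 11.59 in the other 4 regions. Of 10 choroid plexus genes none was beyond the other 20, though Otx2 (3.72) and Ttr (3.72) had large differences, with Slc4a5 (0.32) and Kcne2 (0.03) lowest. The list's mean level was 7.68 in RNA labelled hypothalamus, against 8.86 in amygdala and 4.88 to 6.50 in the other 4 regions. Ttr itself read 13.13 to 13.22, against 14.90 in amygdala, 12.44 in hippocampus and 4.80 to 7.97 in the other 3.

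Scn7a and Foxj1 (1.42) of the tanycyte and ependymal list had all channels above the other 20, which is 2 of 11 members, beside 2.92% of all genes, while Rarres2 (-0.74) and Crym (-3.29) were the lowest. Dopamine and serotonin genes divided: Slc6a3, the dopamine transporter, read 8.08 to 8.34, against 13.43 in midbrain and 2.06 to 2.86 in the other 4 regions, whereas Tph2 was at -2.30, Slc6a4 at -0.41 and Th at 1.16. Of 11 astrocyte genes with a difference, Sox9 (-1.51) was below all 20, beside 2.36% of all genes. Its other 3 probes, though, gave -0.47, 0.19 and 0.22. Agt (1.45) and S100b (0.89) were the highest of that list and Aqp4 (-0.90) its other low member. Microglial genes (10 measured, -0.83 for Aif1 and -0.48 for Trem2 to 0.13 for C1qa and 0.46 for Csf1r), endothelial genes (12 measured, -0.84 for Abcb1a and -0.40 for Pdgfrb to 0.44 for Cldn5 and 0.64 for Pecam1) and meningeal genes (12 measured, -1.18 for Col1a1 and -1.13 for Col1a2 to 0.63 for Aebp1 and 0.65 for Igfbp2) had none beyond the other 20. Of the 3 red blood cell genes Hbb was at 1.51, Slc4a1 at 0.32 and Alas2 at 0.14.

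Midbrain held the highest Slc6a3 and ventral striatum the highest Penk (16.16), known genes of dopamine neurons and of striatal neurons. Over all genes the RNA labelled hypothalamus was nearest to midbrain or to hippocampus, depending on the measure. Only hippocampus shared its scan day, so nearness to hippocampus and a shared scan day cannot be told apart. The Pearson correlation across 28579 genes was 0.972 with midbrain, 0.968 with hippocampus and 0.953 to 0.954 with the other 3 regions, as a description over probes that share platform and normalization. Differences of more than 2 in size were counted for 533 genes against midbrain, 903 against hippocampus and 1294 to 1392 against the others. The median size of difference was 0.43 from midbrain, 0.35 from hippocampus and 0.49 to 0.52 from the others. Midbrain was the next highest region for 357 of the 784 genes and the next lowest for 290 of the 635, and hippocampus for 212 and 233.

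Hippocampus shares the scan day, so that pair is free of a day difference. Prkcd stood at 5.64 against hippocampus, Slc17a6 at 4.54, Pmch at 5.20, Oxt at 3.63 and Trh at 5.24, while Pomc stood at 0.19, Hcrt at 0.05 and Agrp at -0.98. Nrgn was at -4.19 and Neurod6 at -5.68. The thalamic list's median was 3.58 and the peptide list's 0.19 in this pair.

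RNA of the MK-801 rats from the same labelled regions allowed the comparison in other animals, on the same slides. In the MK-801 channels, 698 of the 28696 genes had all 4 hypothalamus channels above the other 20 and 443 had them below. Of the 784 genes from saline RNA, 530 were among the 698, and of the 635, 324 were among the 443. With all 48 channels normalized together, 766 of the 784 genes had a positive difference at the low dose and 769 at the high dose. The median difference of the 784 was 1.32 at the low dose and 1.34 at the high dose. Over all genes it was 0.03 and 0.02. Gpr151 gave 6.75 in saline RNA, 6.55 at the low dose and 6.99 at the high dose, and Prkcd 4.39, 4.73 and 4.81. Oxt gave 3.51, 3.86 and 3.65, and Trh 4.45, 4.23 and 4.77.

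Pmch was the marker that varied between the rat sets. Its difference was 4.88 in saline RNA, 3.25 at the low dose and 1.80 at the high dose. In channels labelled hypothalamus, Pmch read 12.62 to 12.99 in saline RNA, 10.87 and 11.00 at the low dose and 9.84 and 9.58 at the high dose, with saline and MK-801 channels each normalized among themselves. Ttr differed as well, with 3.72 in saline RNA, 4.77 at the low dose and 1.90 at the high dose. Slc6a3 gave 3.58 in saline RNA and -0.17 at the low dose. Dose and rat set cannot be told apart for these genes, since each dose was given to other rats.

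**Figure D4:**
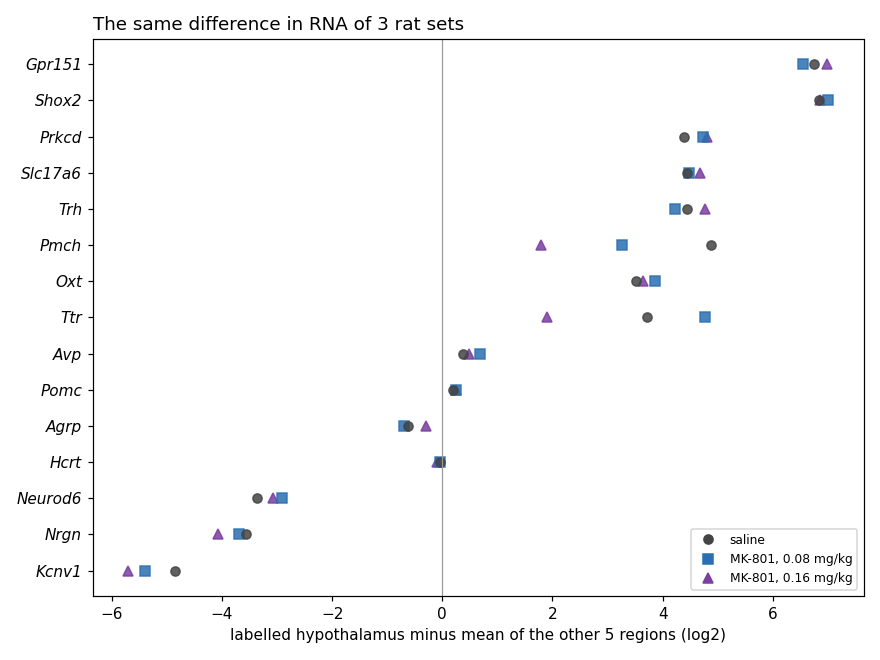
Difference of 15 genes (log2, labelled hypothalamus minus the mean of the other 5 regions) in RNA of saline rats, rats given 0.08 mg per kg and rats given 0.16 mg per kg of MK-801, all channels normalized together. The 3 markers lie close together for Gpr151, Shox2, Slc17a6 and Oxt, and apart for Pmch, from 4.88 in saline to 1.80 at the high dose, and for Ttr.

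A fit over the 18 values of 6 regions and 3 rat sets, added after these data had been seen, took the spread between rat sets as error. It called 30.0% of 26734 genes higher and 28.2% lower in RNA labelled hypothalamus, so a call in it says little of any list. Gpr151 (6.76, SE 0.09, limma adjusted p = 1.13e-13), Prkcd (4.65, SE 0.16), Trh (4.48, SE 0.14), Oxt (3.67, SE 0.37) and Pmch (3.31, SE 0.37, limma adjusted p = 7.36e-06) were among the genes called higher, as were all 7 thalamic genes. Gpr151 and Rgs16, which is 1 of the 7, passed the filter through the saline channels labelled hypothalamus alone, so in saline RNA they had to be high. Gpr151 was at background in the other saline channels, so its error is partly the spread of such values. Of the 27 peptides 8 were called higher and 11 lower. Avp (0.52, SE 0.27, limma adjusted p = 0.118) and Hcrt (-0.06, SE 0.05, limma adjusted p = 0.335) were not called, Pomc was called higher with a difference of 0.23 (SE 0.05) and Agrp lower with -0.54 (SE 0.08). The 3 values of a region share its slide, and this fit cannot remove that.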

How the data were processed

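The deposited files are the scanner output of 24 arrays of 2 colours from Agilent Feature Extraction 9.5.3.1, per the submitters' processing notes. Per the file headers, each of 45018 spots carries a fluorescence intensity per colour that the software had already background-subtracted and dye-normalized, with marks for outliers, saturation and signal over background, and the rn3 genome build. The saline intensity was taken from the colour named in the labels, controls and outliers were dropped, replicate spots averaged, and the log2 values of the 24 channels were quantile normalized. Dye normalization ties the 2 colours of an array together and quantile normalization gives every channel the same distribution, so a shift of all genes cannot be seen.

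Per saline channel, 55.4 to 89.3% of probes were well above background (64.0 to 72.1% in hypothalamus), 0 to 8 spots were saturated, and the median signal was 1.82 to 2.92 times background in Cy3 and 3.81 to 5.77 times in Cy5. Probes had to be well above background in at least 4 of 24 channels. A gene was read by its brightest probe and named through RefSeq accessions, symbols or older names (GRCr8 table, names only). Bounds for dim probes use, per channel, the lowest signal among probes well above background.

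Regional values (2 channels per dye) were compared with limma 3.58.1 in R 4.3.3 (lmFit, eBayes, Benjamini-Hochberg over all genes, 0.05). The fit was checked on simulated data. P-values measure only the spread between these samples. The gene lists, markers and rules were chosen with earlier results of these data known. Genes were named where called and beyond the other 20 channels, which left Gpr151, so the 15 highest and 15 lowest named genes beyond the other 20 channels were added after the data were seen. The marker genes, all neuropeptides and the 2 highest and 2 lowest of each list were also named, except a few genes that are not reported here. The deposited log ratio table and the electrophysiology are not used here.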

Additional observations from a re-analysis of the deposited data

Results flagged for a closer look

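In 59 genes the 4 saline channels labelled hypothalamus were checked for a value far from the other 3, and 4 genes had one, where chance flags about 1 in 20. Log2 intensity was 11.29 in 1 channel for Nmb, with the nearest other at 10.71, and 5.26 for Nmu, with the nearest at 4.17. It was 9.95 for Ntng1 (nearest 10.26) and 14.38 for Slc17a6 (nearest 14.56). The values of Ntng1 and Slc17a6 still lay above all 20 channels of the other regions.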

How the results depend on the processing

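Gpr151 stayed called under all alternatives but scaling to the 75th percentile (6.80, adjusted p = 0.0635) and scan day as a block (6.70, adjusted p = 0.44), each with 0 genes higher; requiring all 24 channels above background removed its probe and also left 0. Its difference was 3.20 with normexp. Elsewhere the alternative fits gave 1 gene higher and 0 lower, apart from 29 and 18 without midbrain and 1 to 2 and 0 when an array number was left out. Taking the 24 channels as separate values called 5685 and 5362, and the 18 values of region and rat set 8020 and 7532. Neither takes the spread between 6 regional values as its error. The replicate block with region as a random block called 212 and 165. That fit takes the spread between regions in part, through 1 correlation of channels within a region (0.552) shared by all genes. Array numbers did not pair channels of different regions, since the correlation of their deviations ran from -0.13 to 0.24 for the same number, with a median of 0.07, and had a median of 0.07 for another number of the same dye. The counts of genes above and below all other channels were 1800 and 1515 without hippocampus, 1490 and 1208 without midbrain, 1709 and 1180 in high-dose RNA and 1660 and 1531 in low-dose RNA, all with fewer channels to pass, and the count below was 363 with normexp. Leaving out an array number gave 990 to 1162 above and 767 to 1011 below. Genes over 4-fold from hippocampus numbered 424 higher and 479 lower, 171 and 231 with normexp, and 139 and 221 when all 24 channels had to be above background; that filter left 1 neuropeptide beyond the other channels. In MK-801 RNA normexp called 9 genes higher and put 281 below, and leaving out a number gave 1 to 3 called and 632 to 745 below. The cause of these differences was not tested. Of 70 named genes with a difference over 1 in size, 64 kept their sign under every alternative, the 18 values left aside; Slc6a3, Th, Slc18a2, Prox1, Cartpt and Penk did not. Oxt ranged from 2.34 to 3.91, Trh from 3.19 to 5.25 and Shox2 from 3.89 to 7.97. The low end came with normexp for all 3.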
